A study of Mus musculus with 2 samples.

Results

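The genes described here encode 7 proteins of the inositol trisphosphate (IP3) pathway of Purkinje cells: the phospholipases Plcb4 and Plcb3, the IP3 receptors Itpr1 and Itpr2, the receptor-binding protein Car8 and the IP3 kinases Itpka and Itpkb. They were taken by symbol from the 32285 genes listed. Purkinje cells were barcodes with at least 2 UMIs of Calb1 and at least 1 UMI of Pcp2, a gate that uses none of the 7 genes. A UMI is a unique molecular identifier and counts 1 captured RNA molecule. The gate held 588 of the 8733 mutant barcodes and 603 of the 8984 control barcodes that passed quality limits (500 or more detected genes, no more than 20% of UMIs mitochondrial). These were 6.73% (95% interval 6.22% to 7.28%) of the mutant and 6.71% (6.203% to 7.25%) of the control barcodes.

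Cerebellar lobules III-IV of newborn mice at postnatal day 1 were dissociated with papain, and 3' single-cell libraries were made. One library came from Cxcr4+/1013 mice (mutant) and one from Cxcr4+/+ littermates (control), both labelled with the strain B6.129S2-Cxcr4tm1.1Bala. The 1013 allele encodes a CXCR4 chemokine receptor with a truncated C-terminal tail and is a germline change of a model of inherited immunodeficiency, so every cell type carried it. The genotype label was used, although the protocol wording names the mutants Cxcr4+/-. Cxcr4 UMIs do not separate the alleles and so do not check the genotype, and how many animals each library pools is not given in these sources.

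In Purkinje cells, glutamate acting on the metabotropic receptor mGluR1 activates a Gq-type G protein and phospholipase C beta, which cleaves a membrane lipid into IP3 and diacylglycerol. IP3 opens IP3 receptors, through which calcium leaves the endoplasmic reticulum, and IP3 kinases convert IP3 to a more highly phosphorylated form. Purkinje cells are known for very high levels of the type 1 receptor, and mice that lack it, Car8 or Plcb4 are ataxic.

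The mutant library held 9551 barcodes with 130429500 UMIs and the control library 9586 barcodes with 120003656 UMIs, and 25 barcode sequences occurred in both. Gated Purkinje cells had a median of 36127.5 UMIs in the mutant and 35941 UMIs in the control library. Of 10 Purkinje markers, 9 were found in at least 10% of the gated cells in both libraries, with a summed level of 13635 CPM (UMIs of a gene per 1e6 UMIs of the cells) in the mutant and 13355 CPM in the control library, Ppp1r17 being the exception. Barcodes marked as doublets were 80 of the mutant and 83 of the control Purkinje cells, and of the others 89.8% and 94.8% fell in Purkinje-like clusters. Among markers of other cells, the 9 of granule neurons had the largest sum, 1111 CPM in the mutant and 1176 CPM in the control library. Of this Unc5c made 917 and 986 CPM, Neurod1 26.7 and 22.3 CPM and Neurod2 33.4 and 26.2 CPM. The 6 markers of GABAergic interneurons summed to 458 and 455 CPM, with Gad1 at 221 and 212 CPM and Pax2 at 15.8 and 10.2 CPM. The 7 of granule cell progenitors summed to 195 and 175 CPM. The 10 of astroglia summed to 164 CPM in the mutant and 209 CPM in the control library, and the 6 ependymal ones to 13.1 and 60.2 CPM. The 6 fibroblast ones summed to 3.97 and 25.6 CPM, the 6 endothelial ones to 31.1 and 9.78 CPM and the 5 erythroid ones to 101 and 7.52 CPM. The 6 microglial markers summed to 11.96 and 11.003 CPM, with Tmem119 at 0 in both libraries and the other 5 present. The part of these differences in the results below was not tested. With 1 library per genotype no test between genotypes was possible, and the 95% intervals given throughout cover counting error only, not differences between animals or preparations.

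Of the 7 genes, 5 had promoter windows in the RefSeq table of build GRCm38.p6, from 250 bases before to 50 bases after a start given by RefSeq. RefSeq starts can differ from the GRCm38 gene ends given below, and the Plcb3 and Plcb4 windows lie inside those genes as that annotation draws them. Itpr1 and Car8 are named only. Shown are the windows of Itpka, the gene with the largest ratio between the libraries, and of the phospholipases Plcb4 and Plcb3, whose levels over cell classes contrasted. Capitals mark GGGCGG, the core of the GC box, on either strand, so that CCGCCC is its form on the opposite strand.
Itpka, chr2:119742087-119742386, plus strand: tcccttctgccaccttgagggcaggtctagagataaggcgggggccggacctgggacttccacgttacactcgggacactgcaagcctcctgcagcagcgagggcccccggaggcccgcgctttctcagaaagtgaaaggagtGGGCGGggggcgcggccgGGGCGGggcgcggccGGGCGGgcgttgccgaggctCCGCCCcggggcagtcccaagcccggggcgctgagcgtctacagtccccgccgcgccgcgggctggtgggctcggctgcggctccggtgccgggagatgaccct
Plcb4, chr2:135659297-135659596, plus strand: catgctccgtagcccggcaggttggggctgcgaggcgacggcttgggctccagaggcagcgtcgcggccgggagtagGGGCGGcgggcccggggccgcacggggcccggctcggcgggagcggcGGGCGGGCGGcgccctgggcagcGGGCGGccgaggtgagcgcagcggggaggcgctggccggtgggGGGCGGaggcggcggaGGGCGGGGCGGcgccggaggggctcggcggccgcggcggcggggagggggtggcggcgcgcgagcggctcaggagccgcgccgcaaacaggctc
Plcb3, chr19:6969765-6970064, minus strand: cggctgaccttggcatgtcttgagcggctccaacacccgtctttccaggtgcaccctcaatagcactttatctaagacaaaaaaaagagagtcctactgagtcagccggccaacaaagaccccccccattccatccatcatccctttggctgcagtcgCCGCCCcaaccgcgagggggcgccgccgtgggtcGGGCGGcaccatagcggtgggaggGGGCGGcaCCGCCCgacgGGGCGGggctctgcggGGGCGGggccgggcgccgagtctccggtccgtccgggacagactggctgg
The Itpka window held 4 matches and 73.7% G or C, the Plcb4 window 7 matches and 84.0%, and the Plcb3 window 6 matches and 67.0%. A second Plcb4 window, at chr2:135764588-135764887, held 0 matches and 44.3% G or C, which differs widely from the first. The Itpr2 window held 5 matches and the Itpkb window 0. Overlapping matches were each counted, and GGGCGG occurred in 35.7% of all 32851 windows, whose median G and C content was 52.7%. AGGTCA, the core of the element read by the Purkinje cell factor Rora, was searched on both strands and occurred in 16.3% of all windows. Among the windows of these genes it matched once, from base 5 of the Plcb3 window, where it reads tgacct on the printed strand.

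Across cell classes, Plcb4, Itpr1, Car8 and Itpka were highest in Purkinje-like cells, whereas Plcb3, Itpr2 and Itpkb were highest in glial, vascular or other non-neuronal classes. Classes were clusters of both libraries named from marker genes, and none of the 7 genes was used to cluster or name them. Purkinje-like clusters held 490 mutant and 590 control cells, and 15 named classes had 20 or more cells in both libraries. Levels are CPM of the summed UMIs of a class and were compared across classes within a gene only, since 3' tags are not scaled to transcript length.

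**Figure D1:**
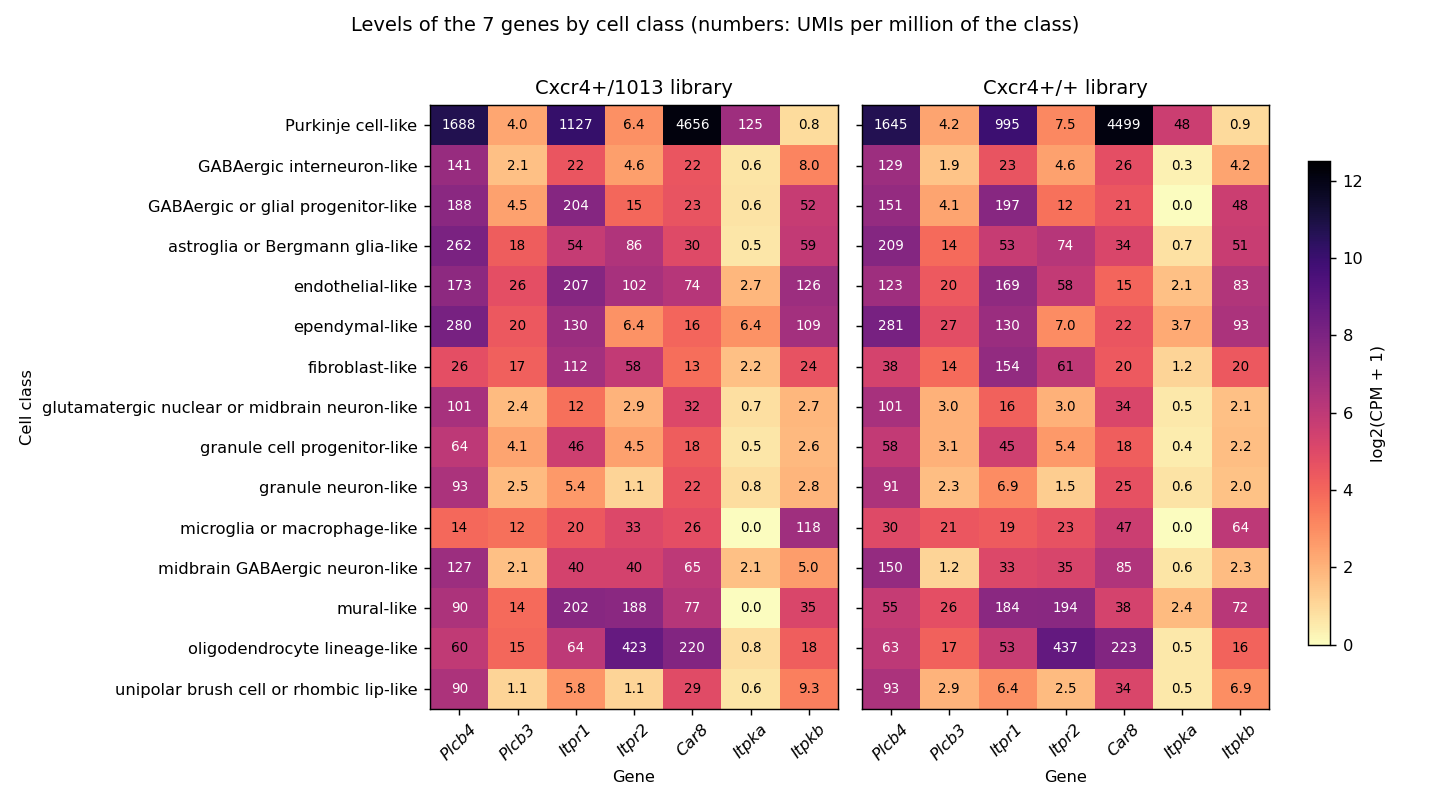
Levels of the 7 genes in 15 cell classes, in the Cxcr4+/1013 library (left) and the Cxcr4+/+ library (right), with CPM of summed UMIs given as numbers and colour following the level on a log scale. Plcb4, Itpr1, Car8 and Itpka peak in Purkinje-like cells, with 1688, 1127, 4656 and 125.2 CPM in the mutant library, and Itpr2 peaks in oligodendrocyte lineage-like cells.

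Plcb4, the phospholipase C beta of zebrin-negative Purkinje cells in the adult mouse, had 1688 CPM in mutant and 1645 CPM in control Purkinje-like cells. Ependymal-like cells came next with 279.6 and 281 CPM, then astroglia or Bergmann glia-like cells with 262 and 209 CPM. The lowest of the named classes, microglia or macrophage-like cells, had 14.3 CPM (7 UMIs) in the mutant and 29.7 CPM (14 UMIs) in the control library, a level that was not told apart from free RNA. The gene lies at chr2:135659011-136014593 on the plus strand of GRCm38. The noncoding gene Gm14211, on the other strand within it, had 485 UMIs in mutant and 562 UMIs in control gated cells.

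Plcb3, its counterpart in zebrin-positive Purkinje cells of the adult mouse, was low throughout. It had 20.5 CPM in mutant and 26.6 CPM in control ependymal-like cells, 25.9 and 19.6 CPM in endothelial-like cells, and 13.9 and 26.3 CPM in mural-like cells. The order of these classes differed between the libraries, on 29 and 57, 29 and 37, and 2 and 11 UMIs. Purkinje-like cells had 4.01 CPM in the mutant and 4.24 CPM in the control library. Plcb3 (chr19:6952325-6976470, minus strand) overlaps Ppp1r14b on the other strand, which had 5786 UMIs in mutant and 5025 UMIs in control gated cells. The sources used here do not say whether reads were counted by strand, so the Plcb3 counts are uncertain.

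The balance of the phospholipases was highest in Purkinje cells in each library. Plcb4 UMIs per Plcb3 UMI numbered 378 (304 to 475) in mutant and 327 (269 to 403) in control gated Purkinje cells. GABAergic interneuron-like cells had 67.2 in the mutant and 69.6 in the control library, granule neuron-like cells 37.7 and 40.5, and astroglia or Bergmann glia-like cells 14.3 and 15.2. Oligodendrocyte lineage-like cells had 4.0 and 3.81. The intervals of Purkinje cells lay above those of these 4 classes in each library. Classes with few Plcb3 UMIs were less certain. Midbrain GABAergic neuron-like cells, with 3 and 2 Plcb3 UMIs, had 59.7 (20.1 to 292) in the mutant and 129 (35.4 to 1071) in the control library, the second of which overlaps the Purkinje interval, and the class with unipolar brush cell or rhombic lip markers, with 6 and 12 Plcb3 UMIs, had 80.7 and 31.7. Capture may differ between the 2 transcripts, so the balance was read across classes and not as a ratio of molecules.

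In single Purkinje cells, thinned to 10000 UMIs each, Plcb3 UMIs occurred together with Plcb4 UMIs. Both were found in 26 of 543 mutant and 20 of 571 control cells, Plcb4 alone in 497 and 536 cells, and neither in 20 and 15 cells. Plcb3 alone was found in 0 cells of either library. With so few Plcb4-negative cells, a separate Plcb3-positive population was not detectable at this depth.

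Itpr1, the type 1 IP3 receptor, had 1127 CPM in mutant and 995 CPM in control Purkinje-like cells. The following classes were GABAergic or glial progenitor-like cells with 204 and 197 CPM, mural-like cells with 202 and 184 CPM and endothelial-like cells with 207 and 169 CPM, and their order differed between the libraries. Granule neuron-like cells had 5.36 CPM in the mutant and 6.93 CPM in the control library, and the class with unipolar brush cell or rhombic lip markers 5.75 and 6.39 CPM. Itpr1 lies at chr6:108213096-108551109 on the plus strand. Its antisense gene Gm44040 had 256 UMIs in mutant and 315 UMIs in control gated cells.

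Itpr2, the type 2 IP3 receptor, known from glial cells, was highest in oligodendrocyte lineage-like cells. It had 423 CPM (398 to 449.9) in the mutant and 437 CPM (409.8 to 466) in the control library there. Mural-like cells, 23 in the mutant and 53 in the control library, had 188 and 194 CPM, and astroglia or Bergmann glia-like cells 85.8 and 74.2 CPM. Purkinje-like cells had 6.37 CPM in the mutant and 7.47 CPM in the control library. The gene lies at chr6:146108299-146502223 on the minus strand.

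Car8, a carbonic anhydrase-related protein without enzyme activity that binds the type 1 IP3 receptor, had 4656 CPM in mutant and 4499 CPM in control Purkinje-like cells. Oligodendrocyte lineage-like cells followed among the named classes with 219.7 and 223 CPM. The gate held 456 of the 490 mutant and 493 of the 590 control Purkinje-like cells, so barcodes outside it include the remaining Purkinje-like cells. Outside the gate, 25.7% of mutant and 27.6% of control barcodes had a Car8 UMI, at 37.0 and 51.0 CPM. Granule neuron-like cells, which should lack Car8, had 21.7 and 24.7 CPM. Levels at or below that of granule neuron-like cells were read as background. Car8 lies at chr4:8143362-8239041 on the minus strand.

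Itpka, the A form of IP3 3-kinase and an actin-binding protein of dendritic spines, had nearly all its UMIs in Purkinje cells. Gated cells held 96.2% of the Itpka UMIs in the mutant and 93.5% in the control library, against 15.8% and 17.9% of all UMIs. Ependymal-like cells had 6.35 CPM in the mutant and 3.74 CPM in the control library, on 9 and 8 UMIs. Microglia or macrophage-like cells had 0 Itpka UMIs in both libraries, which allows up to 6.11 CPM in the mutant and 6.37 CPM in the control library. Itpka lies at chr2:119742337-119751263 on the plus strand.

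Itpkb, the B form of the kinase, was lowest in Purkinje-like cells among the 15 named classes. It had 0.850 CPM (14 UMIs) in mutant and 0.905 CPM (16 UMIs) in control Purkinje-like cells. Endothelial-like cells had 126 CPM in the mutant and 83.1 CPM in the control library, ependymal-like cells 109 and 93.4 CPM, and microglia or macrophage-like cells 118 and 63.7 CPM. Astroglia or Bergmann glia-like cells followed with 58.7 and 50.9 CPM. Purkinje-like cells were thus the highest class for the kinase Itpka and the lowest for Itpkb. Itpkb lies at chr1:180330485-180424802 on the plus strand.

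The genes with the most similar pattern were taken by Pearson's r of log2(CPM + 1) over 32 points, 16 classes (the unnamed one included) in each of the 2 libraries, among 12530 genes with at least 500 UMIs. Plcb4 was nearest to Thy1 (0.849), Scd3 (0.830) and Ttll5 (0.817), and Plcb3 to Erf (0.962), Rest (0.955) and Mif4gd (0.941). Itpr1 was nearest to Lmo7 (0.870), Ctnnb1 (0.825) and Timm8a1 (0.773), and Itpr2 to Creb3l2 (0.878), Spry1 (0.850) and Ppfibp1 (0.847). Car8 was nearest to Calb1 (0.885), Tuba8 (0.872) and Pcp2 (0.866), of which Calb1 and Pcp2 also made the gate. Itpka was nearest to Esrrb (0.869), Gckr (0.865) and Smpx (0.863), and Itpkb to Pnpla2 (0.896), Pon2 (0.895) and Tmbim6 (0.891). Within the 7 genes, r was highest between Itpkb and Plcb3 (0.802), Itpka and Plcb4 (0.749) and Itpka and Car8 (0.738). The points share libraries and differ in depth and cell number.

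Between the libraries, Itpka was 2.52 times as high in mutant as in control Purkinje cells, while Car8 and Plcb4 differed by under 2% with the sexes pooled. The Plcb4 ratio was 0.944 in female and 1.08 in male cells. Itpr1 was 1.13 times as high, a ratio that was 0.933 in female and 1.37 in male cells. Itpkb was lower in the mutant library on few UMIs. Of all 14168 genes with 50 or more UMIs in the libraries together, 953 (6.73%) differed at least 1.5-fold, 413 upward (2.92%) and 540 downward (3.81%). Upward calls were thus 43.3% of these, against 56.6% when CPM was averaged over cells in place of summing UMIs. Of the 7 genes, all of which passed that minimum, 2 did, Itpka upward and Itpkb downward. The median log2 ratio was -0.01 over the 7 genes and 0.01 over all genes, of which the middle 90% lay between -0.49 and 0.46.

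**Figure D2:**
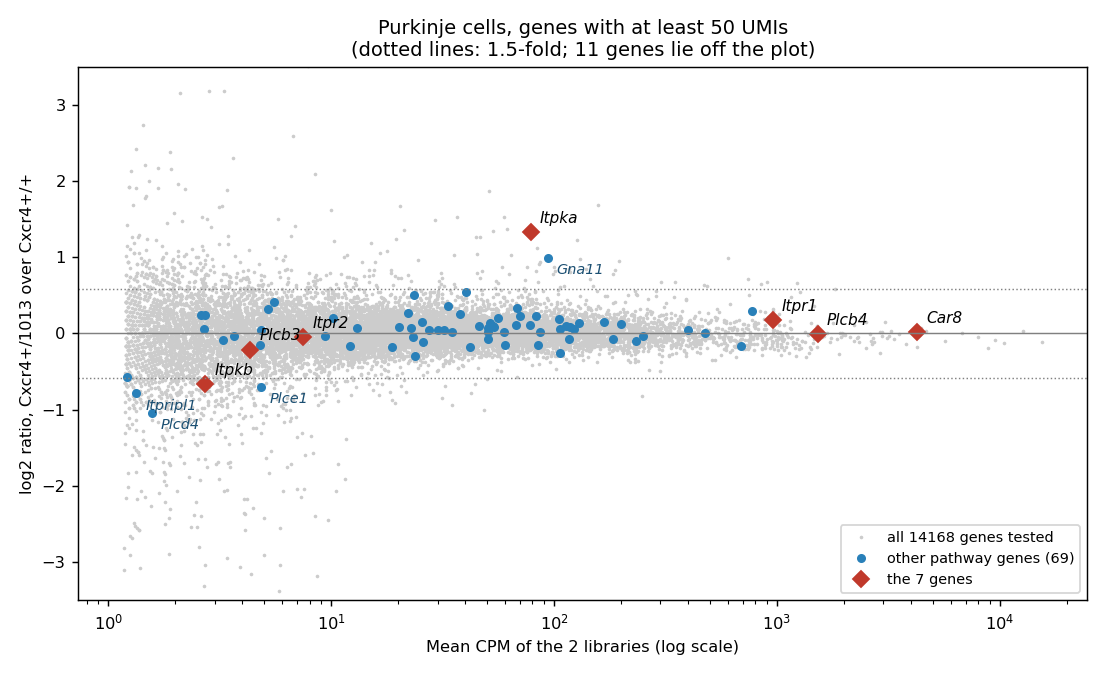
Log2 ratio of the Cxcr4+/1013 over the Cxcr4+/+ library against mean CPM (log scale) in gated Purkinje cells, for all 14168 genes with at least 50 UMIs, with other pathway genes and the 7 genes marked. Itpka lies at 1.33, above the 1.5-fold line, whereas Car8 (0.02), Plcb4 (-0.01) and Itpr1 (0.17) lie between the lines.

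Plcb4 had 30979 UMIs in mutant and 32416 UMIs in control Purkinje cells, at 1518 and 1524 CPM. The pooled ratio was 0.996 (0.981 to 1.01), an interval that includes 1. It was 0.944 (0.921 to 0.968) in female and 1.08 (1.05 to 1.10) in male cells. Plcb3 had 82 and 99 UMIs, at 4.02 CPM in the mutant and 4.66 CPM in the control library, and its pooled ratio was 0.863 (0.636 to 1.17). Its ratio was 0.563 (0.311 to 0.980) in female cells, on 19 mutant and 46 control UMIs. In male cells it was 1.54 (0.928 to 2.62), on 46 and 25 UMIs. Both pooled Plcb3 levels were below the 5.27 CPM of mutant and 6.24 CPM of control barcodes outside the gate. A Plcb3 UMI was found in 12.4% of mutant and 14.3% of control Purkinje cells, against 5.97% and 6.16% of the barcodes outside it, which were shallower, so that no order was read from the shares.

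Itpr1 had 20671 UMIs in mutant and 19131 UMIs in control Purkinje cells, at 1013 CPM (999.4 to 1027) and 899.6 CPM (887 to 912). Its pooled ratio of 1.13 (1.10 to 1.15) lay below 1.5-fold with an interval above 1, as did the intervals of 17.2% of all genes tested. It was 0.933 (0.905 to 0.963) in female and 1.37 (1.33 to 1.41) in male cells, and the libraries differed in the mix of sexes. The median cell held 30 Itpr1 UMIs in the mutant and 26 in the control library. Itpr2 had 150 and 162 UMIs, at 7.35 CPM in the mutant and 7.62 CPM in the control library, a ratio of 0.965 (0.768 to 1.21). Both levels were below those of the barcodes outside the gate, which had 23.0 CPM in the mutant and 29.8 CPM in the control library.

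Car8 had 87148 UMIs in mutant and 89528 UMIs in control Purkinje cells, at 4272 and 4209.9 CPM. The ratio was 1.015 (1.005 to 1.024), and its direction turned when CPM was averaged over cells (log2 ratio -0.0030). A Car8 UMI was found in 96.1% of mutant and 98.5% of control cells, with medians of 160 and 155 UMIs per cell.

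Itpka had 2301 UMIs in mutant and 952 UMIs in control Purkinje cells, at 113 CPM (108 to 117) and 44.8 CPM (42.0 to 47.7). The ratio was 2.52 (2.34 to 2.72), a log2 ratio of 1.33, and the mutant library was higher. It was the 55th highest log2 ratio of the 14168 genes and the 11th of the 8448 genes with at least 500 UMIs. No single cell set it, since the top cell held 0.695% of the mutant and 1.05% of the control Itpka UMIs.

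An Itpka UMI was found in 81.5% of mutant and 67.0% of control Purkinje cells, against 1.07% and 0.716% of the barcodes outside the gate, whose median depths were 12641 and 11084 UMIs. After thinning to 10000 UMIs, which left out 45 mutant and 32 control cells, the shares were 58.9% (54.7% to 63.1%) and 36.3% (32.3% to 40.3%). The thinned mean was 1.08 UMIs per mutant cell (SD 1.21, 543 cells) and 0.461 UMIs per control cell (SD 0.698, 571 cells). Both the share of cells and the mean were higher in the mutant library at matched depth.

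**Figure D3:**
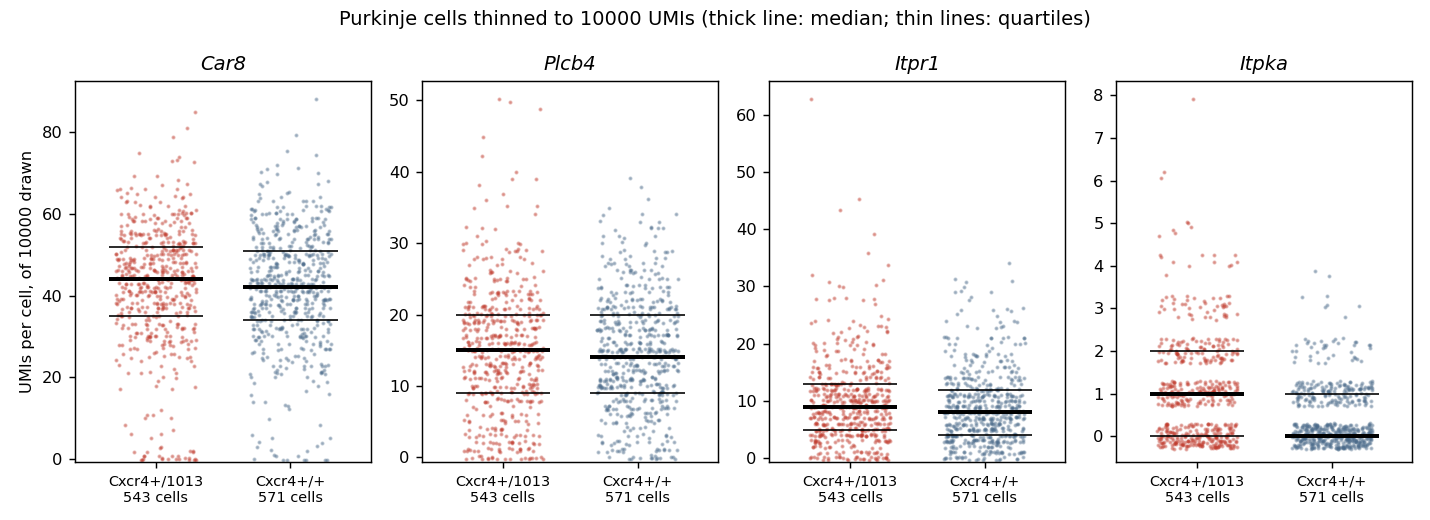
UMIs per gated Purkinje cell after thinning to 10000 UMIs, for Car8, Plcb4, Itpr1 and Itpka, in the 543 Cxcr4+/1013 cells (left in each panel) and the 571 Cxcr4+/+ cells (right). The Itpka median is 1 UMI in the mutant and 0 in the control library, whereas the medians are 44 and 42 UMIs for Car8, 15 and 14 for Plcb4 and 9 and 8 for Itpr1.

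The Itpka transcript held 61.1% G or C, in the top decile of the genes tested (57.7% to 75%). In that decile 6.50% of genes passed 1.5-fold upward and 1.91% downward. Itpka ranked 15th highest of the 1416 genes of its decile, and with the decile's median log2 ratio of 0.04 taken off its log2 ratio was 1.29. The part of base composition in the rest was not tested.

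Itpkb had 43 UMIs in mutant and 71 UMIs in control Purkinje cells, at 2.11 and 3.34 CPM, a ratio of 0.631 (0.4218 to 0.935). One control cell held 10 UMIs, 14.1% of the control sum. A gated sub-cluster led by ependymal and astroglial genes, in which 25 of 48 cells were marked as doublets, held 11 of the mutant and 50 of the control UMIs. In the 5 sub-clusters described next Itpkb had 15 UMIs in the mutant and 12 in the control library, a ratio of 1.3 (0.568 to 3.04). The lower mutant level was not found in these cells, and the counts were too few to set a direction.

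The gated cells fell into 9 sub-clusters, found without the 7 genes, of which 5 had at least 80% of their cells in Purkinje-like clusters. The other 4 were low in depth, rich in marked doublets or led by genes of other classes. The 5, numbered 1, 3, 4, 5 and 6 in the plot of sub-clusters, were led by Fgf3, Fgf15 and Lmo1 (139 mutant and 76 control cells), by Mab21l2, Sulf1 and Nr2f1 (37 and 68 cells), by Cdh12 and Cdh9 (129 and 144 cells), by Gpc5, Tshz2 and Rorb (53 and 59 cells) and by Col11a1, Cdh4 and Lmo4 (90 and 120 cells). Sub-clusters are described with no test, and their sizes were not compared between the libraries.

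Car8 was nearly level over the 5 sub-clusters, between 4057 CPM in mutant cells of the Gpc5 sub-cluster and 4911 CPM in those of the Fgf3 sub-cluster, with control levels from 4136 to 4812 CPM. Plcb4 varied most among the abundant genes. The Cdh12 sub-cluster had 2114 CPM of Plcb4 in the mutant and 2015 CPM in the control library, whereas the Gpc5 sub-cluster had 488 and 641 CPM. Over both libraries the highest sub-cluster was 3.63 times the lowest.

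Itpr1 was highest in the Mab21l2 sub-cluster, with 1899 CPM in mutant and 1388 CPM in control cells. It was lowest in the Col11a1 sub-cluster in the mutant library, with 853 CPM. In the control library the Col11a1 sub-cluster, with 809.7 CPM (784 to 837), was not told apart from the Fgf3 one, with 814 CPM (779 to 850). Itpka followed the same extreme at its top, with 189.6 CPM in mutant and 65.1 CPM in control cells of the Mab21l2 sub-cluster. Its lowest level was in the Gpc5 sub-cluster, with 47.0 and 24.3 CPM, where Plcb4 was also lowest.

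**Figure D4:**
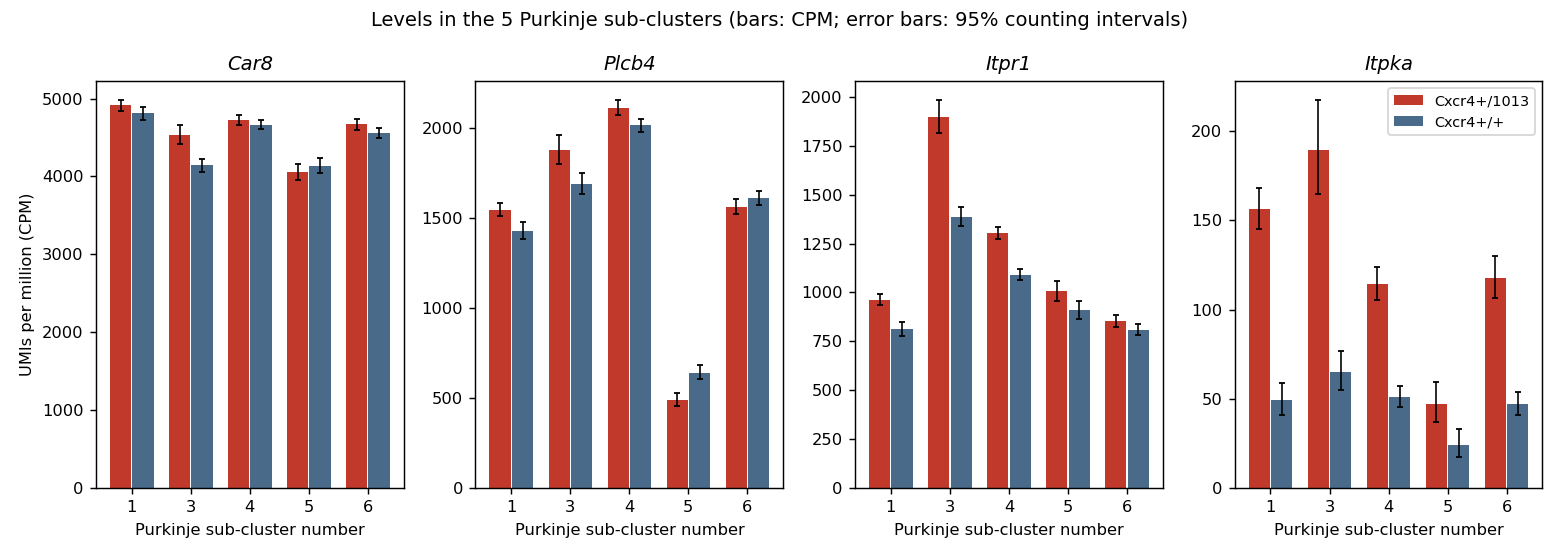
Levels of the abundant genes in the 5 Purkinje sub-clusters, as CPM of summed UMIs with 95% counting intervals, in the Cxcr4+/1013 library (left of each pair) and the Cxcr4+/+ library (right). Plcb4 is lowest in sub-cluster 5, led by Gpc5, with 488 and 641 CPM, and Itpka is higher in the mutant library in each of the 5.

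Itpka was higher in the mutant library in each of the 5 sub-clusters. The ratio was 3.17 (2.62 to 3.86) in the Fgf3 sub-cluster, 2.91 in the Mab21l2, 2.25 in the Cdh12, 1.94 (1.303 to 2.92) in the Gpc5 and 2.51 in the Col11a1 sub-cluster, and 2.59 (2.38 to 2.81) over the 5 together. Itpr1 ratios ran from 1.05 to 1.37 and Car8 ratios from 0.981 to 1.10. Plcb4 ratios ran from 0.97 to 1.11 in 4 sub-clusters, with 0.762 (0.693 to 0.837) in the Gpc5 sub-cluster.

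Each library held cells of both sexes by Xist and Y-linked UMIs. There were 209 female and 268 male gated cells in the mutant and 268 female and 232 male cells in the control library. A further 111 mutant and 103 control gated cells were assigned to neither sex and left out of the ratios by sex. Itpka was higher in the mutant library in both sexes. It had 104 CPM in mutant and 45.8 CPM in control female cells (ratio 2.26, 2.01 to 2.55) and 124.6 and 43.8 CPM in male cells (2.84, 2.52 to 3.21). Itpr1 went in opposite directions. It had 936 CPM in mutant and 1003 CPM in control female cells (0.933, 0.905 to 0.963), and 1159 and 847 CPM in male cells (1.37, 1.33 to 1.41).

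In the 5 sub-clusters together the Itpr1 ratio was 0.931 in female and 1.38 in male cells. By sub-cluster it lay between 0.827 and 1.16 in female cells and between 1.19 and 1.61 in male cells. Itpka ratios by sub-cluster and sex ran from 1.80 to 3.67, apart from 1.19 (0.570 to 2.37) in male cells of the Gpc5 sub-cluster, on 14 mutant and 25 control UMIs. Plcb4 had a ratio of 0.944 (0.921 to 0.968) in female and 1.08 (1.05 to 1.10) in male cells. Car8 had ratios of 1.01 and 1.05. Female and male cells come from different animals, whose number per library is not known, so sex and animal cannot be told apart.

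**Figure D5:**
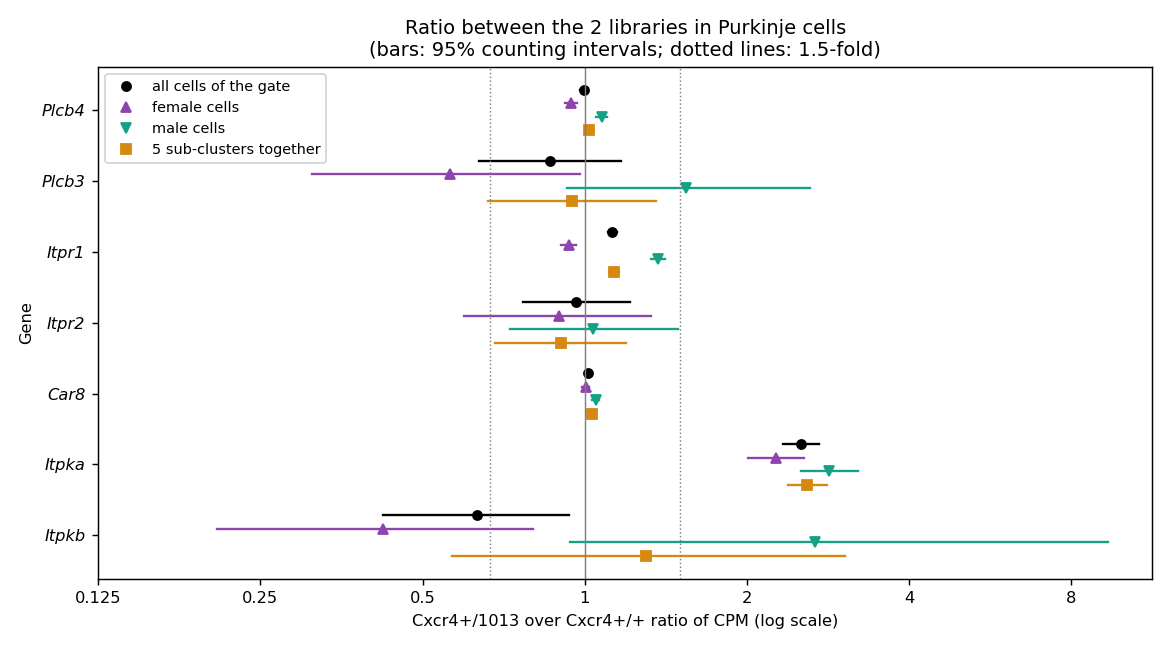
Ratio of the Cxcr4+/1013 over the Cxcr4+/+ library (log axis) with 95% counting intervals, in all gated Purkinje cells, in female and male cells and in the 5 sub-clusters together. Itpka lies above 1 in every set, whereas Itpr1 lies at 0.933 in female and 1.37 in male cells.

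Levels of the abundant genes in single cells were positively correlated in both libraries. Over the 543 mutant and 571 control thinned cells, Pearson's r of log2(UMIs + 1) between Car8 and Plcb4 was 0.599 in the mutant and 0.540 in the control library, with Spearman's rho of 0.307 and 0.336. Between Itpr1 and Car8, r was 0.574 and 0.507 and rho 0.300 and 0.380. Between Itpr1 and Plcb4, r was 0.428 and 0.379 and rho 0.355 and 0.335, and between Itpka and Itpr1, r was 0.249 and 0.201 and rho 0.212 and 0.197. For both pairs with Car8 the rank correlation was well below r in each library. With Calb1, a gene of the gate outside the pathway, r was 0.879 and 0.790 for Car8 and 0.604 and 0.514 for Itpr1. It was 0.537 and 0.357 for Plcb4 and 0.324 and 0.164 for Itpka. The correlations were thus not read as particular to the pathway. Cells of a library share that library, and 52 mutant and 27 control gated cells fell in clusters other than the Purkinje-like ones. A further 80 mutant and 83 control gated cells were marked as doublets.

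Ebf2, a transcription factor of Purkinje cells of future zebrin-negative stripes, was detected in 552 mutant and 587 control gated cells and not in 36 and 16 cells. The Ebf2-negative cells had median depths of 9389 and 9325 UMIs and little Itpr1 in the mutant library, with 1034 CPM in Ebf2-positive and 30.4 CPM in Ebf2-negative cells. Between these sets 56.9% of all genes in the mutant and 61.3% in the control library differed at least 1.5-fold, and Itpr1, Car8 and Plcb4 were higher in Ebf2-positive cells by more than that in both. Calb1, a gene of the gate, also differed, with 3603 CPM in Ebf2-positive and 285 CPM in Ebf2-negative mutant cells, so this split was not read as one between kinds of Purkinje cells. A split chosen after the data were seen used the 5 sub-clusters thinned to 10000 UMIs, with 194 mutant and 186 control cells above 10 Ebf2 UMIs and 239 and 268 cells at or below it.

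In that split Plcb4 was higher in cells with more Ebf2, with 18.0 against 13.8 UMIs per cell in the mutant library (ratio 1.31, 1.25 to 1.38) and 17.6 against 14.4 UMIs per cell in the control library (1.22, 1.17 to 1.28). This lay under 1.5-fold, which 4.44% and 4.70% of all genes passed. Car8 had ratios of 1.03 and 1.05, and Itpka 0.943 (0.793 to 1.12) in the mutant and 0.997 (0.756 to 1.31) in the control library. Itpr1 had 1.11 (1.05 to 1.18) and 1.03 (0.9704 to 1.10). Of the 5 sub-clusters, the Cdh12 one had the most Ebf2, with 1192 CPM in the mutant and 1130 CPM in the control library. The Gpc5 one had the least, with 829 and 827 CPM. Plcb4 had the same highest and lowest sub-cluster, and the split was not made within sub-clusters.

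At the border of the Purkinje gate, the 30 mutant and 12 control barcodes with exactly 2 Calb1 UMIs had 70.8 and 178 CPM of Car8, 164 and 377 CPM of Plcb4, and 0 Itpka UMIs. The 94 mutant and 80 control barcodes with 1 Calb1 UMI and at least 1 Pcp2 UMI, just outside, had 38.2 and 45.2 CPM of Car8, 108 and 125.03 CPM of Plcb4, and 1.56 and 0 CPM of Itpka.

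Between the libraries, the 7 genes were also compared in the larger cell classes. Among the 10 named classes with 100 or more cells in both libraries, 51 of 70 pairs of gene and class had at least 50 UMIs, and 2 of these passed 1.5-fold. One was Itpka in Purkinje-like cells, at 2.63 (2.42 to 2.85), where 4.82% of genes passed. The other was Itpkb in GABAergic interneuron-like cells, with 180 UMIs (8.03 CPM) in the mutant and 66 UMIs (4.23 CPM) in the control library, a ratio of 1.90 (1.42 to 2.56), where 4.04% of genes passed. Further pairs passed under alternative clusterings. Itpr1 passed in granule neuron-like cells at resolution 0.5 (98 and 117 UMIs, log2 ratio -0.69) and in midbrain GABAergic neuron-like cells with a 10% mitochondrial limit (56 and 42 UMIs, 0.67). Itpkb passed in Purkinje-like cells with doublets kept (25 and 41 UMIs, -0.60). In the other 8 classes, in which 0 of the 7 genes passed, the share of all genes past 1.5-fold was 5.85% in GABAergic or glial progenitor-like, 5.72% in astroglia or Bergmann glia-like, 8.11% in glutamatergic nuclear or midbrain neuron-like and 4.49% in granule cell progenitor-like cells. It was 4.38% in granule neuron-like, 7.71% in midbrain GABAergic neuron-like and 6.6% in oligodendrocyte lineage-like cells, and 5.96% in the class with unipolar brush cell or rhombic lip markers.

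The Itpkb ratio was not the same over the interneuron-like clusters. It was 3.03 (1.73 to 5.61) in the cluster that differed most among those with UMIs in both libraries and 0.702 (0.346 to 1.45) in the one with the most cells. The latter alone lay below 1. The others had 2.07 (1.09 to 4.15), 2.55 (0.655 to 14.4) and 1.71 (0.952 to 3.21), and a further cluster held 8 mutant and 0 control UMIs. Interneuron-like cells with an Itpkb UMI, thinned to 2000 UMIs, were 1.6% in the mutant and 1.18% in the control library. Below 1.5-fold, Plcb4 was higher in mutant astroglia or Bergmann glia-like cells, with 262 CPM against 209 CPM in control ones (1.25, 1.18 to 1.33). Plcb3 had a ratio of 1.33 (1.05 to 1.68) there. The Plcb4 rise was not particular to that class, since GABAergic or glial progenitor-like cells had a ratio of 1.24 (1.12 to 1.39). Across the remaining named classes compared, Plcb4 ratios ran from 0.844 to 1.09. The astroglial class pools clusters in unlike shares, such as a cluster with 96 mutant and 345 control cells, and their part was not tested.

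A wider list of 75 pathway genes gave 69 with 50 or more UMIs in gated Purkinje cells, of which 1 passed 1.5-fold upward and 3 downward in mutant cells. These 4 of 69 stand beside 6.73% of all genes (2.92% upward and 3.81% downward), a share near the background. The median log2 ratio of the list was 0.06, against 0.01 over all genes. Gna11, a Gq-family subunit upstream of phospholipase C beta, was the higher one, with 124.5 CPM in mutant and 62.6 CPM in control cells (ratio 1.99, 1.86 to 2.13). Its log2 ratio was 0.98 with the median of its G and C decile taken off, and it ranked 105th of the 14168 genes.

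The lower ones were the phospholipases Plcd4, with 21 UMIs in mutant and 45 UMIs in control cells (0.486, 0.275 to 0.834), and Plce1, with 75 and 127 UMIs (0.616, 0.456 to 0.825), and the receptor-interacting Itpripl1, with 20 and 36 UMIs (0.579, 0.318 to 1.03). None of these 3 passed in male cells or in the 5 sub-clusters, where Gna11 alone of the list did (log2 ratios of 0.89 and 1.05). Among the most abundant of each role, Gnaq, the other Gq subunit, had 406 CPM in mutant and 395 CPM in control cells (1.03). Plcb1, a further phospholipase C beta, had 645 and 727 CPM (0.887, 0.867 to 0.908). Atp2a2, the calcium pump that refills the endoplasmic reticulum, had 851 and 693 CPM (1.23, 1.20 to 1.25).

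Of the other leading genes, Ahcyl1, which binds IP3 receptors, had a ratio of 1.10, Pi4ka, a kinase of lipid supply, 1.04, Prkca, a protein kinase C, 1.01, Inpp4a, a phosphatase, 0.935 and Ip6k2, an inositol hexakisphosphate kinase, 0.901. By role, 4 of 5 receptor and G protein genes, 8 of 10 other phospholipases, 4 of 5 other receptors and kinases, 11 of 11 phosphatases, 9 of 10 binding partners, 11 of 11 diacylglycerol-arm genes, 9 of 10 calcium-store genes and 13 of 13 lipid-supply genes had at least 50 UMIs.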

How the data were processed

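Per the submitters' processing notes, bcl2fastq 2.20.0.4222, Cell Ranger 7.2 and build mm10 were used. The sources used here do not give the annotation, intronic counting or use of strand. Raw UMI counts per gene and barcode were deposited by the authors, with no normalisation. The barcode and feature lists gave names only.

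Barcodes with 500 or more genes and no more than 20% mitochondrial UMIs were used (median 13135 UMIs in the mutant and 11630.5 in the control library). UMIs were summed over cells of a library and given as CPM, with exact Poisson, binomial (Clopper-Pearson) and conditional binomial 95% intervals. Intervals cover counting error only, since UMIs and cells of 1 library are not replicates. A count of 0 is given with the limit of 3 counts. For classes, Scrublet's highest scores at 0.8% per 1000 barcodes were left out (667 mutant and 689 control barcodes; its own threshold gave 345 and 387), and cells were clustered together in scanpy 1.11.5 (2000 variable genes, 30 components, 15 neighbours, resolution 1, 32 clusters). A class needed 3 markers found in 10% of cells and 2-fold enriched. These naming thresholds were chosen after seeing the data, and microglia and border macrophages were merged. Sub-clusters used 1000 genes, 20 components and resolution 0.5. Cells with Xist but no Y-linked UMIs were called female and the reverse male.

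Genes with 50 or more UMIs in the libraries together were called by a 1.5-fold difference, with no test. Beside the 7 genes, the text names wider-list genes past 1.5-fold, the most abundant of each role and, by pattern, the 3 most similar genes. The members and lists were chosen with earlier results of these data known. Scripts were checked on simulated counts (python 3.11.15, scipy 1.17.1), and edgeR 4.0.16 gave TMM factors for one alternative. Other alternatives were median-of-ratios scaling, gates, depth, sex, doublets, count minimums, mitochondrial limit and clustering resolution.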

Additional observations from a re-analysis of the deposited data

Results flagged for a closer look

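Itpr1 and Plcb4 differed between the libraries in opposite directions in female and male Purkinje cells. For Itpr1 the mutant over control ratio was 0.933 in female and 1.37 in male cells. For Plcb4 it was 0.944 in female and 1.08 in male cells. The difference between the sexes was not tested, since each library is 1 sample. Female and male cells come from different animals, so this difference cannot be told apart from one between animals.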

How the results depend on the processing

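4 of the 7 genes were highest in Purkinje-like cells under each of the 4 clustering alternatives, and the Itpka log2 ratio ran from 1.18 to 1.51 over 13 alternatives. Itpr1 turned to -0.10 in female cells only, Itpkb to 1.42 in male cells only and 0.38 in the 5 sub-clusters, and Car8 to -0.0030 as a mean of CPM per cell. The number of the 7 genes past 1.5-fold was 1 in place of 2 with doublets left out, a stricter gate (Calb1 at least 4, Pcp2 at least 2), a mean of CPM per cell, thinning to 10000 UMIs, Purkinje-like clusters only or the 5 sub-clusters. The log2 ratio of the Plcb4 to Plcb3 balance, 0.21 in all gated cells, was 0.75 in female cells, -0.52 in male cells and -0.42 after thinning. Wider-list genes past 1.5-fold numbered 1 in male cells, 2 in Purkinje-like clusters and 1 in the 5 sub-clusters, in place of 4. Genes past 1.5-fold numbered 547 after thinning, 630 in Purkinje-like clusters, 607 in the 5 sub-clusters, 2732 with at least 10 UMIs, 6712 with no filter and 267 with at least 200 UMIs, in place of 953. Of these calls 43.3% were higher in the mutant library, against 66.4% in male cells, 64.2% after thinning and 58.1% with at least 200 UMIs. The number of the 7 genes whose interval showed a higher level in Ebf2-positive cells of both libraries was 0 in Purkinje-like clusters in place of 3, and the highest over the lowest Plcb4 sub-cluster was 6.68 at resolution 1. The causes were not tested. The alternatives by G and C content, the 5 sub-clusters and the median split of Ebf2 were chosen after seeing the data. No paired analysis was possible because each genotype has 1 library. Counts of Plcb3, Itpr2 and Itpkb in Purkinje cells limit what could be seen for these genes.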
